A study of Mus musculus with 6 samples.

Results

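The 36 genes described here belong to the interferon response and to the display of antigen on MHC class I. Members were found by their symbol: a probe set counted when the member was the only gene that the platform annotation paired with it, and the brightest probe set stood for the gene. In this way 35 of the 36 genes were found, out of 18193 genes on the array. Of these, 31 passed a filter on dim probe sets and were among the 12684 genes tested, while Irf7, Ifit1, Ifit3 and Usp18 were too dim. The single probe set of Isg15 is also assigned to Gm9706, so its values are given apart from the members. The grouping serves to ask whether hairpin vectors set off an innate response in stem cells.

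The cells were J1, a wild-type mouse embryonic stem cell line, on gelatin in medium with 15% serum and leukemia inhibitory factor at 1000 U/ml. They carried the lentiviral vector pLKO.1 with a non-targeting hairpin (shNT) or with 1 of 2 hairpins against the histone demethylase family gene Jmjd1c, shJmjd1c#3 (sh3) or shJmjd1c#4 (sh4). Puromycin at 1.5 ug/ml was applied for 2 days from 1 day after infection, and RNA was taken after a further 4 days of culture. Each of the 3 groups had 2 arrays, called biological replicates by the labels. All 6 RNA samples came from infected, selected cells, and no uninfected cells were analysed here. The comparison is therefore between targeting and non-targeting hairpins, and an effect shared by all pLKO.1 vectors cannot be seen in it. RNA was taken from whole cultures, so fewer cells of a kind and less RNA per cell cannot be told apart.

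Interferons are secreted proteins that cells release when sensors such as MDA5 detect viral RNA. Type I interferons bind the receptor pair IFNAR1 and IFNAR2, whose kinases phosphorylate STAT proteins, and a complex that holds STAT2 and IRF9 then binds an interferon-stimulated response element (ISRE) at its target genes. Interferon gamma acts through a different element, the gamma-activated site (GAS), and IRF1, itself a target, passes the signal on to genes of antigen presentation. Embryonic stem cells are known to respond weakly to interferon and to keep a few antiviral genes, among them the IFITM family, at a high level without it. MHC class I molecules, peptide loading and the immunoproteasome are low in such cells and are induced by interferon.

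Promoter sequence is shown for 7 members because their signals differ in the comparisons below, either between hairpins or between replicate numbers, and because some carry these elements and some do not. RefSeq promoter windows of 300 bases on GRCm38.p6, from 250 before to 50 after the start of transcription, were matched to 33 of the 36 genes by symbol, and Dhx58, Parp14 and Usp18 had none. The ISRE core was searched on both strands as GAAA, any 2 bases and GAAA again, and the GAS as TTCNNNGAA, which reads the same on both strands. The ISRE core stood in 13 of the 33 members (39.4%), against 3.99% of 27025 genes and 3.44% of 32851 windows. The GAS stood in 11 members (33.3%), against 9.55% of genes and 8.3% of windows. Bst2, Eif2ak2, Ifitm3 and Oas1a held both, and 13 members, among them Phf11d, Ifitm1 and Tap1, held neither in this window. These are matches of letters and are not measured binding. Each of the first 6 sequences is the 150 bases before the start of transcription, and the last is the first 30 transcribed bases of Ifitm3, where its matches lie; all are written in the direction of the gene, with matches to either motif in capitals.
Irf1 (chr11:53769864-53770013, + strand): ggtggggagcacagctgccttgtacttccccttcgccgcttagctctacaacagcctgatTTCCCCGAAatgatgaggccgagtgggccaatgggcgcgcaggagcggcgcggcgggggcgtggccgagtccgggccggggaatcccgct
Psmb8 (chr17:34198045-34198194, + strand): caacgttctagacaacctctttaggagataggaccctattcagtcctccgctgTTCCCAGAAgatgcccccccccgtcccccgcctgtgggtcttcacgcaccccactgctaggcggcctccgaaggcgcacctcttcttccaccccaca
Gbp2 (chr3:142620513-142620662, + strand): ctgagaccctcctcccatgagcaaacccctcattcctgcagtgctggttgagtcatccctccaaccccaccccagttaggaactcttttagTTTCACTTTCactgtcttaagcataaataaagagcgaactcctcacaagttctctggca
Bst2 (chr8:71537473-71537622, - strand): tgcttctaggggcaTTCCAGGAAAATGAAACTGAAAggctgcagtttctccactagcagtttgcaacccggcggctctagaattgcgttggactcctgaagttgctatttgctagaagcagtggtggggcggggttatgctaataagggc
Phf11d (chr14:59365491-59365640, - strand): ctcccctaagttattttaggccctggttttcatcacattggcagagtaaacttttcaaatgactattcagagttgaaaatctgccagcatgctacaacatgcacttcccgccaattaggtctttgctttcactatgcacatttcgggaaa
Ifitm1 (chr7:140967926-140968075, + strand): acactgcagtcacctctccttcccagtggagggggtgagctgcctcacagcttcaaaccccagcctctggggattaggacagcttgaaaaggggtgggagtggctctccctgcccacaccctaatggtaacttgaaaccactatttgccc
Ifitm3 (chr7:141010715-141010744, - strand): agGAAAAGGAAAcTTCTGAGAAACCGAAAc

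Irf1 and Psmb8 show a GAS match each. Gbp2 shows an ISRE core on the opposite strand, and Bst2 shows a GAS match that runs into a pair of overlapping ISRE cores. In Ifitm3 a pair of ISRE cores surrounds a GAS match that overlaps the later core. Phf11d and Ifitm1 show no capitals. Mean signals of both were lower under each Jmjd1c hairpin than in shNT, but so was that of Ifitm3, which holds matches. A link between motifs and these signals was not tested. Several members are neighbours on the chromosome: Ifitm2, Ifitm1 and Ifitm3 lie together, as do Psmb9, Tap1 and Psmb8 in the MHC, and the Tap1 and Psmb9 windows overlap on opposite strands.

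The values are signal intensities that were scaled to a like mean on every array, so levels of different probe sets are not compared here. Differences are given as log2(signal + 16), a scale on which the changes of dim genes come out too small. A gene is called when its limma test, adjusted by Benjamini-Hochberg over all genes tested, gave p below 0.05. The main comparison is the mean of both Jmjd1c hairpins against shNT, called the knockdown mean. Same-numbered arrays deviated together from their group means, so the fit was repeated with the replicate number as a block, and its result is given where it changes the call of a member or of a listed gene. No label says what a replicate number marks, and the pairing is inferred from these arrays, so the block may make the error of a difference too small.

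The median signal of an array was 69.2 to 81.0, and a signal above 100 was reached by 44.0% to 46.2% of probe sets. The brightest Jmjd1c probe set, 1426900_at, read 6060 and 5516 in shNT, 4541 and 4984 in sh3, and 3274 and 4215 in sh4. In the knockdown mean it differed on the log2 scale by -0.46 (SE 0.13 and adjusted p = 0.358 by limma over all probe sets). The dimmer Jmjd1c probe set 1448049_at differed the other way, by 0.90 (SE 0.15 and adjusted p = 0.117 by limma). So did 1439998_at, by 0.73 (SE 0.25 and adjusted p = 0.439 by limma). On both of these, all 4 knockdown arrays lay above both controls. A lower Jmjd1c signal was thus seen on the brightest probe set alone, and no Jmjd1c probe set passed the test. All 10 embryonic stem cell markers passed the filter. Of 12 macrophage and leukocyte markers 3 passed (Cd68, Csf1r and Laptm5), and Ptprc, the pan-leukocyte gene, read at most 29.3.

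Among the members, Phf11d was lower under both Jmjd1c hairpins, and no member was called higher. The 3 most negative differences were those of Phf11d, Ifitm3 and Ifitm1. The 6 antigen presentation genes all had small positive differences, none of them called. In the knockdown mean 0 of 31 members were called higher, against 0.56% of all genes tested, and 1 of 31 was called lower, against 0.166% (limma). At an unadjusted p below 0.05 there were 3 members (Phf11d, Ifitm3 and Ifitm1), against 12.3% of all genes. The median difference over the 31 members was 0.07, beside 0.01 over all genes, and 17 of the 31 were positive. All 4 knockdown arrays lay above both control arrays for 2 members, Ifnar1 and Eif2ak2, against 11.2% of all genes, and below both for 4 members, Phf11d, Ifitm3, Ifitm1 and Oas1a, against 9.54%. With the replicate block, 1 member was called higher (Gbp2), against 3.33% of genes, and 3 lower (Phf11d, Ifitm3 and Ifitm1), against 2.26%. The share of members called higher was thus close to that of all genes with the block (3.23%). Without the block, 0 of 31 beside 0.56% of all genes cannot show a lower share, because so few calls fall on 31 genes. The share called lower, 3.23% without and 9.68% with the block, was above that of all genes but comes from 1 and 3 members.

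**Figure D1:**
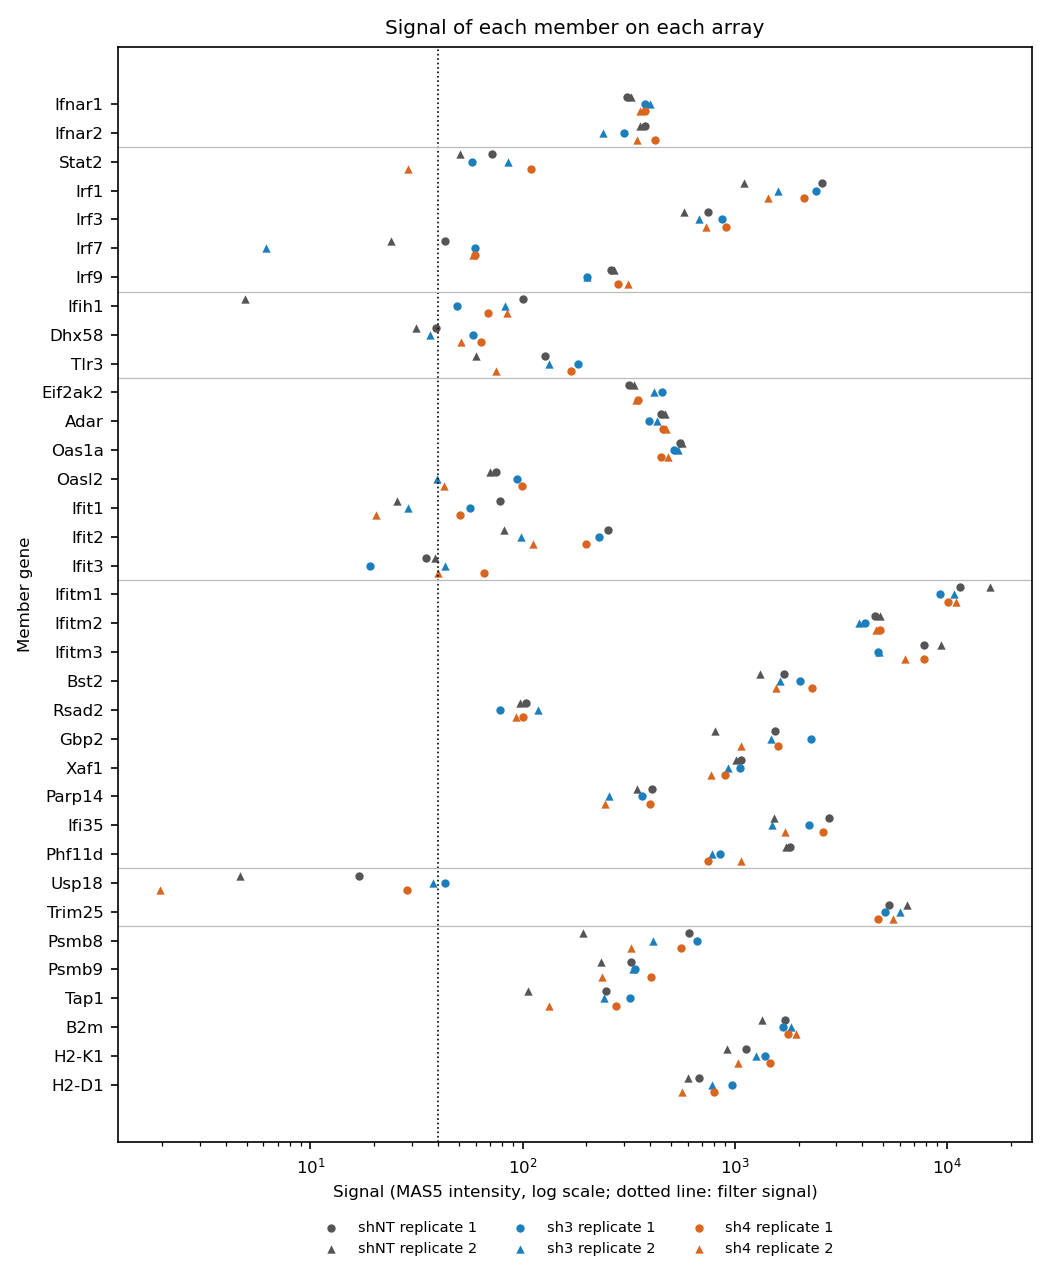
Signal of each of the 35 members (rows, grouped by role) on each of the 6 arrays, as MAS5 intensity on a log axis; colour marks the group, circles replicate 1 and triangles replicate 2, and the dotted line the filter signal of 40.12. In most rows the colours are mixed, while in the Phf11d row the 2 control arrays (1818 and 1742) stand to the right of all 4 knockdown arrays.

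The receptor subunits were detected in every group. Ifnar1, the low-affinity subunit of the type I interferon receptor, read 309 and 326 in shNT, 379 and 400 in sh3, and 379 and 359 in sh4. The 4 knockdown arrays lay above both controls, yet the log2 difference of 0.24 (SE 0.16 and adjusted p = 0.584 by limma) was not called. Ifnar2, the high-affinity subunit, read 380 and 357 in shNT, 302 and 239 in sh3, and 423 and 347 in sh4, so that both sh3 arrays and sh4 replicate 2 lay below both controls. Its log2 difference was -0.19 (SE 0.18), while its dimmer probe set 1440169_x_at gave 0.51, so its direction depends on the probe set.

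None of the 4 tested transcription factors of the pathway was called in any comparison of hairpins. Irf1, the factor that activates many class I genes, read 2585 and 1100 in shNT, 2418 and 1591 in sh3, and 2124 and 1434 in sh4. The spread within each group was wider than the log2 difference of 0.13 (SE 0.32). Irf3, which carries the signal from RNA sensors to the interferon genes, read 748 and 576 in shNT, 872 and 676 in sh3, and 906 and 729 in sh4, with a log2 difference of 0.26 (SE 0.17), or 0.077 without shNT replicate 2. A dimmer Irf3 probe set, 1416898_a_at, gave 1.05 (SE 0.30 and adjusted p = 0.378 by limma over all probe sets), and its other probe sets above the filter gave -0.15 and -0.02. Stat2, a partner of IRF9 in the complex that binds the ISRE, read 72.1 and 50.7 in shNT and 28.8 to 109 in the knockdown arrays, close to the filter. Irf9, the DNA-binding subunit of that complex, read 262 and 269 in shNT, 202 and 200 in sh3, and 280 and 313 in sh4. Irf7, the factor that amplifies interferon production, read at most 59.4 on any array and did not pass the filter.

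The 3 RNA sensors among the members were dim. Ddx58, which encodes the RNA sensor RIG-I and belongs to the wider lists, passed the filter and read 554 to 664 over all arrays. Ifih1, which encodes MDA5, read 100 and 4.91 in shNT, 49.0 and 82.6 in sh3, and 69.0 and 84.3 in sh4. The log2 difference of 0.80 (SE 0.59 and adjusted p = 0.654 by limma) rests on shNT replicate 2, and without that array it was -0.43. Dhx58, which encodes the RIG-I-like protein LGP2, read 38.9 and 31.5 in shNT, 58.5 and 36.7 in sh3, and 63.6 and 51.4 in sh4, with a log2 difference of 0.41 (SE 0.32). Tlr3, the endosomal receptor for double-stranded RNA, read 128 and 59.99 in shNT, 182 and 134 in sh3, and 169 and 75.2 in sh4, with a log2 difference of 0.52 (SE 0.37). All 3 member sensors had positive differences under each hairpin, and none was called. Without shNT replicate 2 the Tlr3 difference was 0.056.

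The effectors that act on RNA and translation were either dim or not called. Eif2ak2, which encodes the double-stranded RNA-activated kinase PKR, read 316 and 336 in shNT, 456 and 415 in sh3, and 350 and 344 in sh4. The sh3 arrays were the highest, and the knockdown mean differed by 0.24 (SE 0.16 and adjusted p = 0.586 by limma), but a dimmer probe set, 1440866_at, gave -0.44. Adar, the editing enzyme that marks cellular double-stranded RNA as self, read 395 to 476 over all arrays, with a log2 difference of -0.06 (SE 0.15). Oas1a, a synthetase of the RNase L pathway, read 553 and 562 in shNT, 515 and 541 in sh3, and 451 and 486 in sh4. All 4 knockdown arrays were below both controls, by a log2 difference of -0.16 (SE 0.14 and adjusted p = 0.713 by limma). Oasl2, a relative of the synthetases, read 39.7 to 99.4 over all arrays. Ifit2, whose family binds viral RNA ends, read 253 and 81.7 in shNT, 229 and 97.98 in sh3, and 199 and 112 in sh4. Gaps within its groups were far larger than the log2 difference of 0.04 (SE 0.45). Ifit1 and Ifit3 read at most 78.5 and 65.7 and did not pass the filter, although both are classical interferon targets.

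Phf11d, a PHD finger gene induced by interferon, had the largest difference of all members. Its probe set, 1438868_at, read 1818 and 1742 in shNT, 851 and 780 in sh3, and 750 and 1070 in sh4. All 4 knockdown arrays lay far below both controls, and their mean was 48.5% of the control mean. The log2 difference was -1.04 (SE 0.15 and adjusted p = 0.0284 by limma, and 0.00116 with the block). In sh3 it was -1.11 (adjusted p = 0.0754 by limma, and 0.00293 with the block) and in sh4 -0.98 (adjusted p = 0.0642 by limma, and 0.00479 with the block). The direction held in every alternative, with values from -1.17 to -0.92, but the call was lost without the intensity trend (adjusted p = 0.145 by limma) and on leaving out any array except sh4 replicate 2 (adjusted p of 0.0580 to 0.120 by limma).

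The IFITM proteins sit in membranes and block the entry of enveloped viruses, and the 3 probe sets read between 3839 and 16061 over all arrays. Ifitm3 (1423754_at) read 7835 and 9371 in shNT, 4751 and 4815 in sh3, and 7827 and 6377 in sh4. The sh3 arrays differed little from each other and averaged 55.6% of the control mean, while sh4 replicate 1 nearly reached the lower control. The knockdown mean differed by -0.56 (SE 0.12 and adjusted p = 0.101 by limma), which passed only with the block (adjusted p = 0.00803). In sh3 the log2 difference was -0.84 (SE 0.14 and adjusted p = 0.0754 by limma, and 0.00263 with the block), and in sh4 it was -0.28 (SE 0.14 and adjusted p = 0.464 by limma). Set against each other, sh4 exceeded sh3 by 0.56 on the log2 scale (SE 0.14 and adjusted p = 0.510 by limma, and 0.0643 with the block), so a difference between the hairpins was not shown.

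Ifitm1 (1424254_at) read 11506 and 16061 in shNT, 9331 and 10796 in sh3, and 10153 and 11033 in sh4. All 4 knockdown arrays lay below both controls, and shNT replicate 2 was the highest array. The log2 difference was -0.40 (SE 0.14 and adjusted p = 0.293 by limma, and 0.0151 with the block), and it was -0.16 without shNT replicate 2. With the block it was also called in sh3 (log2 -0.44, adjusted p = 0.0272) and in sh4 (log2 -0.36, adjusted p = 0.0474) by limma. Ifitm2, their neighbour, read 4577 and 4862 in shNT, 4136 and 3839 in sh3, and 4830 and 4613 in sh4. Both sh3 arrays lay below both controls (log2 -0.24, SE 0.11, adjusted p = 0.519 by limma), and neither hairpin gave a call.

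Embryonic stem cell markers mostly had negative differences as well, with no call without the block. In the knockdown mean 9 of the 10 had negative differences (median -0.25), while 51.7% of all genes had positive ones (median 0.01). Of the 10 markers 0 were called without the block, and 5 were called lower with it (Esrrb, Klf4, Sox2, Nanog and Dppa5a), against 2.26% of all genes. With the block 3 were called lower in sh3 (Esrrb, Sox2 and Dppa5a) by limma, against 1.4% of all genes. In sh4 the block gave 4 lower (Esrrb, Klf4, Sox2 and Nanog), against 2.22%. Without the block 0 were called in either hairpin, against 0.071% of all genes in sh3 and 0.363% in sh4. Esrrb, a nuclear receptor of naive pluripotency, differed most in the knockdown mean (log2 -0.77, adjusted p = 0.207 by limma, and 0.000586 with the block). The part of these markers in the lower Phf11d, Ifitm3 and Ifitm1 signals was not tested.

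Gbp2, an interferon-induced guanylate-binding GTPase, was measured by probe set 1435906_x_at, which read 1553 and 809 in shNT, 2279 and 1486 in sh3, and 1593 and 1069 in sh4. Groups overlapped, and within every group replicate 1 was well above replicate 2. The log2 difference was 0.46 (SE 0.28 and adjusted p = 0.561 by limma), and with the block it was called in the knockdown mean (adjusted p = 0.0307) and in sh3 (log2 0.71, adjusted p = 0.0112). Without shNT replicate 2 the difference was -0.0029, and the other Gbp2 probe set, 1418240_at, gave 0.26. Bst2, which encodes tetherin and holds budding virus at the cell surface, read 1701 and 1323 in shNT, 2038 and 1638 in sh3, and 2318 and 1572 in sh4, with a log2 difference of 0.31 (SE 0.18 and adjusted p = 0.541 by limma). Its groups overlapped, and here too replicate 1 was the higher array each time. Without shNT replicate 2 the Bst2 difference was 0.13.

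**Figure D2:**
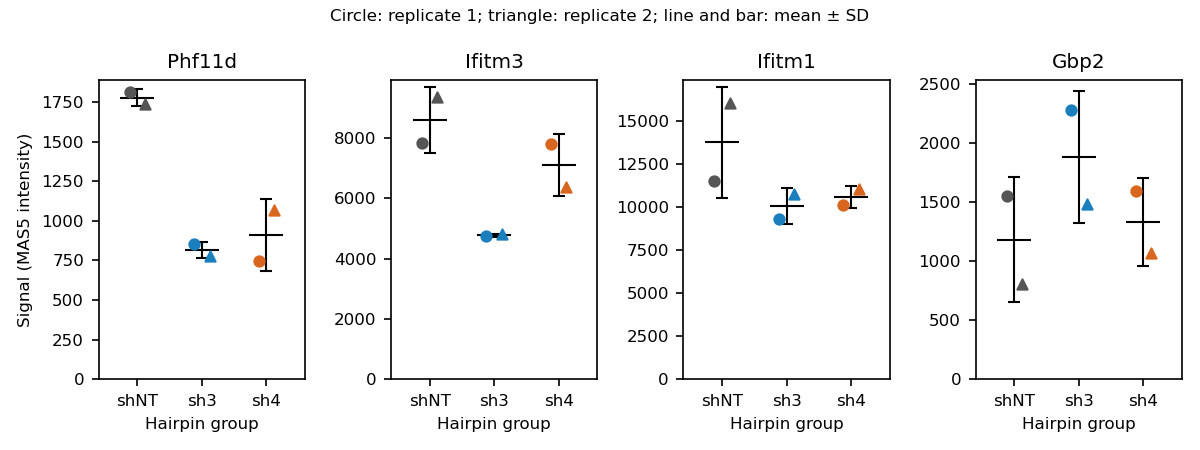
Signal (MAS5 intensity, linear axis from 0) of Phf11d, Ifitm3, Ifitm1 and Gbp2 in the 3 hairpin groups; circles are replicate 1, triangles replicate 2, and the line and bar the mean ± SD of 2 arrays. Phf11d falls from 1780 ± 53.8 in shNT to 816 ± 50.4 in sh3 and 910 ± 227 in sh4, while Gbp2 shows overlapping groups with the circle above the triangle in each.

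The remaining effectors were not called in any comparison of hairpins. Rsad2, which encodes viperin, read 78.3 to 118 over all arrays, with a log2 difference of -0.05 (SE 0.26). Xaf1, a pro-apoptotic interferon target, read 1067 and 1014 in shNT, 1055 and 935 in sh3, and 902 and 777 in sh4, with a log2 difference of -0.19 (SE 0.13). Parp14, an ADP-ribosyltransferase, differed by -0.27 (SE 0.24), with 348 to 408 in shNT and 244 to 398 in the knockdown arrays. Ifi35 read 2797 and 1531 in shNT, 2244 and 1500 in sh3, and 2618 and 1735 in sh4, and its log2 difference of -0.07 (SE 0.26) was far smaller than the gap within each group.

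Of the ISG15 and ubiquitin genes only Trim25, the ligase that acts on RIG-I, was tested. It read 5312 and 6515 in shNT, 5113 and 6047 in sh3, and 4729 and 5587 in sh4, with a log2 difference of -0.14 (SE 0.13). Usp18, the protease that removes ISG15, read at most 43.2 and did not pass the filter. The probe set shared by Isg15, a ubiquitin-like protein, and Gm9706 read 238 and 199 in shNT, 411 and 290 in sh3, and 505 and 353 in sh4. All 4 knockdown arrays lay above both controls, with a log2 difference of 0.77 (SE 0.22 and adjusted p = 0.369 by limma over all probe sets), which was not called and cannot be assigned to Isg15 alone.

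The 6 antigen presentation genes had positive differences under each hairpin, with a median of 0.28 in the knockdown mean, 0.40 in sh3 and 0.25 in sh4, and 0 of 6 were called. H2-K1, a class I heavy chain, read 1125 and 921 in shNT, 1387 and 1255 in sh3, and 1468 and 1042 in sh4. The groups overlapped in 1 array, sh4 replicate 2, and the log2 difference was 0.32 (SE 0.16 and adjusted p = 0.466 by limma). H2-D1, the other class I heavy chain, read 682 and 605 in shNT, 970 and 783 in sh3, and 803 and 562 in sh4, with a log2 difference of 0.25 (SE 0.18). Most probe sets of the heavy chains are of the kind that may also bind related class I transcripts, and the mean over all H2-D1 probe sets gave -0.11. B2m, the light chain of every class I molecule, read 1728 and 1351 in shNT, 1681 and 1834 in sh3, and 1783 and 1935 in sh4. The 2 control arrays lay on either side of sh3 replicate 1, and the log2 difference was 0.24 (SE 0.13 and adjusted p = 0.501 by limma). Leaving out 1 array moved these differences to as little as 0.063 for B2m (without shNT replicate 2), 0.12 for H2-D1 (without sh4 replicate 1) and 0.18 for H2-K1 (without shNT replicate 2).

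The arrays of a group lay far apart for the immunoproteasome and transporter genes. Psmb8, a catalytic subunit of the immunoproteasome, read 608 and 193 in shNT, 663 and 411 in sh3, and 560 and 326 in sh4. Tap1, a subunit of the peptide transporter, read 247 and 106 in shNT, 320 and 241 in sh3, and 277 and 133 in sh4. Psmb9, a further catalytic subunit, read 324 and 235 in shNT, 337 and 332 in sh3, and 404 and 236 in sh4. Their log2 differences of 0.44 (SE 0.41), 0.47 (SE 0.36) and 0.21 (SE 0.24) all depended on the lower control, and became -0.35, -0.084 and -0.0066 without shNT replicate 2.

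Each hairpin was also set against shNT by itself; both comparisons use the same 2 control arrays. In sh3, 0 of 31 members were called, against 0.071% of all genes, and 3 (Phf11d, Ifitm3 and Ifitm1) had an unadjusted p below 0.05, against 9.74% (limma). With the block, 1 member was called higher in sh3 (Gbp2), against 2.03% of genes, and 3 lower (Phf11d, Ifitm3 and Ifitm1), against 1.4%. In sh4, 0 of 31 were called, against 0.363%, and 1 (Phf11d) had an unadjusted p below 0.05, against 12.1% (limma). With the block, 0 members were called higher in sh4, against 2.69%, and 2 lower (Phf11d and Ifitm1), against 2.22%. Median differences over the members were 0.18 in sh3 and 0.05 in sh4, beside 0.01 and 0.02 over all genes. Between the hairpins, sh4 minus sh3, 0 of 31 members were called without the block, against 0% of genes, and 0 with it, against 0.418%, while 3 members (Ifitm3, Irf9 and Ifnar2) had an unadjusted p below 0.05, against 6.1% (limma).

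**Figure D3:**
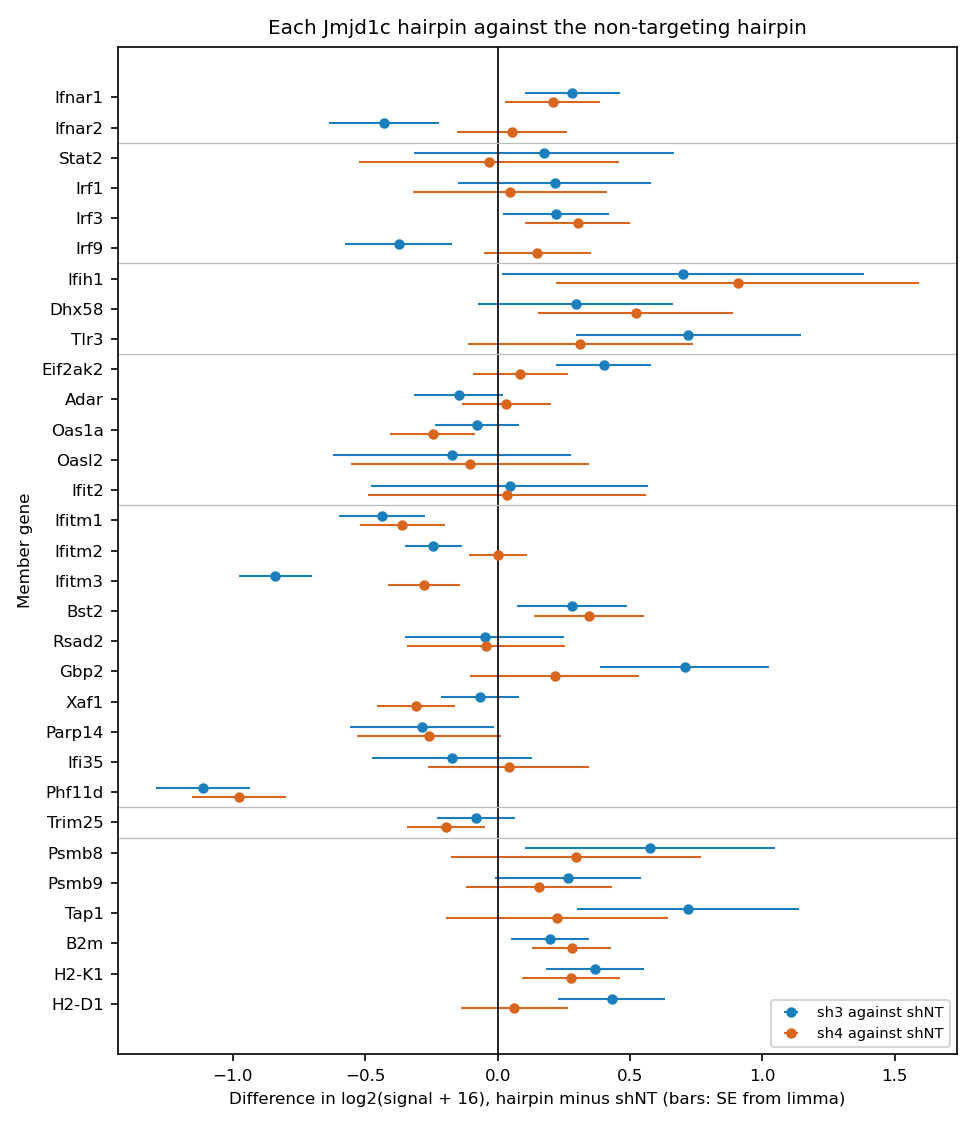
Log2 difference of each of the 31 tested members for sh3 (blue) and sh4 (orange) against shNT, with SE from limma as bars; both colours share the same control arrays. Phf11d stands near -1 under both hairpins (-1.11 and -0.98), Ifitm3 lies lower in sh3 (-0.84) than in sh4 (-0.28), and the 6 antigen presentation genes lie to the right of 0.

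A difference between the arrays of a group ran through many members. This contrast, replicate number 1 against 2 from the fit with the block, was chosen after the values had been seen. Replicate 1 was above replicate 2 in all 3 groups for 17 of 31 members, against 24.5% of all genes, and below it in all 3 for 4 members (Trim25, Ifitm1, Adar and Oas1a), against 18.8%. By limma 7 of 31 members were called higher in replicate 1, against 2.39% of genes, and 0 lower, against 2.32%. The 7 were Ifi35, Gbp2, Irf1, Psmb8, Ifit2, Bst2 and Tap1. The median member difference was 0.32, beside 0.03 over all genes. Within groups this median came to 0.21 for shNT, 0.14 for sh3 and 0.29 for sh4, so the control group showed it as well.

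Ifit2 had the largest of these 7 differences, 1.10 (SE 0.21 and adjusted p = 0.0127 by limma), with replicate 1 above replicate 2 by 1.46 in shNT, 1.11 in sh3 and 0.75 in sh4. Psmb8 differed by 1.00 (SE 0.17 and adjusted p = 0.00936 by limma) and Tap1 by 0.82 (SE 0.19 and adjusted p = 0.0315 by limma). Irf1, the factor known to act on both of these class I genes, differed by 0.79 (SE 0.12 and adjusted p = 0.00583 by limma), with 1.22 in shNT, 0.60 in sh3 and 0.56 in sh4. Gbp2 differed by 0.70 (adjusted p = 0.00395 by limma), Ifi35 by 0.68 (adjusted p = 0.00296 by limma) and Bst2 by 0.41 (adjusted p = 0.0273 by limma). The Ifi35 value is that of 1445897_s_at, a probe set of the kind that may also bind other transcripts. On its other probe sets above the filter, replicate 1 lay below replicate 2 in sh3. There 1424617_at read 214 and 290, and 1459151_x_at read 223 and 252. In shNT and sh4 replicate 1 was the higher array on both. The promoter sequences printed above show a GAS or ISRE match in Irf1, Psmb8, Gbp2 and Bst2. Ifi35 held a GAS match at position 7 from the start of transcription. Ifit2 held a GAS match at position -241 from an annotated start, with no match in a further window. Tap1 held neither motif. Of all 33 members with a window, 13 held neither, so matches were common in the list. The part of these motifs or of Irf1 in the replicate difference was not tested. B2m (0.04), Ifitm3 (0.01) and Phf11d (-0.11) had smaller differences that were not called. All 7 calls were lost without the intensity trend in the fit, with every sign kept. When probe sets that may cross-hybridize were dropped, 6 of the 7 kept their call and 6 kept their sign.

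**Figure D4:**
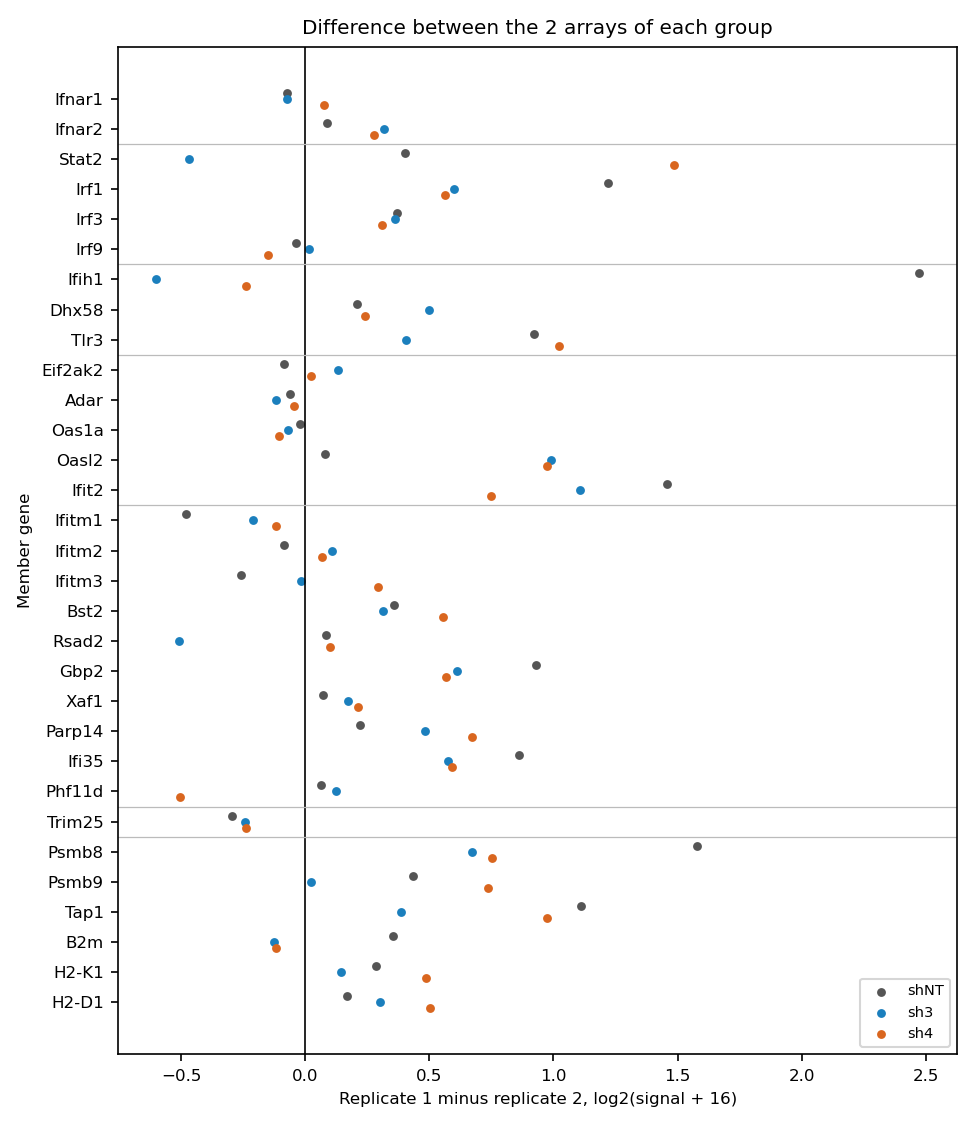
Replicate 1 minus replicate 2 on the log2(signal + 16) scale for each of the 31 tested members, with 1 point for each group (grey shNT, blue sh3, orange sh4). For Irf1, Ifit2, Gbp2, Ifi35, Psmb8, Tap1 and Bst2 all 3 points lie to the right of 0, and for Ifih1 a single point (2.47, shNT) stands far from the others.

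The other genes of the pathway were taken from 8 lists of 148 genes, chosen with earlier results of these data known. A probe set was found for 128 of them, and 101 were tested. By limma without the block, 0 of the 101 were called in the knockdown mean, in either hairpin or between hairpins. Of all genes tested, 0.56% were called higher and 0.166% lower in the knockdown mean. The shares were 0.071% in sh3, 0.363% in sh4 and 0% between hairpins. A count of 0 among 101 genes lies near these shares and does not show an absence of change. The 8 interferon genes with a probe set, among them Ifnb1, Ifna4 and Ifng, all fell below the filter, which applies to the mean over the 6 arrays, with highest signals of 14.4 to 57.5. Single arrays exceeded the filter signal, among them both sh3 arrays of Ifnb1 (41.4 and 47.8, against 36.1 and 18.7 in shNT) and both shNT arrays of Ifna5 (47.8 and 44.4). Among 14 genes of RNA and DNA sensing, Sting1, the adaptor of DNA sensing, had the smallest p. It read 24.5 and 9.55 in shNT, 59.3 and 76.2 in sh3, and 56.3 and 59.5 in sh4. All 4 knockdown arrays lay above both controls, at dim signal (log2 1.29, SE 0.34, adjusted p = 0.165 by limma); the next was Tlr9, a receptor for DNA (log2 0.42).

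Receptor signalling had 12 tested genes. Tyk2, a kinase of the type I receptor, read 703 and 605 in shNT, 500 and 381 in sh3, and 425 and 427 in sh4 (log2 -0.58, SE 0.16, adjusted p = 0.197 by limma, and 0.0309 with the block), and Jak2, a kinase of the interferon gamma receptor, differed by 0.27. Among 33 other interferon-stimulated genes, Pml, the core protein of nuclear bodies, read 983 and 1203 in shNT, 867 and 763 in sh3, and 608 and 516 in sh4. It differed on the log2 scale by -0.67 (SE 0.15 and adjusted p = 0.106 by limma, and 0.0142 with the block). In sh4 it was called with the block (log2 -0.94, adjusted p = 0.00533) and also with arrays centred on their median (log2 -1.05, adjusted p = 0.0418) by limma. Ifi30, a lysosomal thiol reductase, was called lower with the block (log2 -0.32, adjusted p = 0.0498), and Gbp3 and Irgm2, GTPases like Gbp2, higher (log2 0.57 and 0.91, adjusted p = 0.0322 and 0.0283), all by limma.

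Among 16 other class I genes the smallest p were those of Psme3, a proteasome activator subunit (log2 -0.32), and H2-Ke6, a gene of the MHC region that has no part in peptide display (log2 -0.44). Of 4 class II genes, H2-Eb1, a class II beta chain, read 66.1 and 116 in shNT, 79.8 and 83.3 in sh3, and 4.25 and 14.8 in sh4, and it was called lower in sh4 with the block (log2 -2.06, adjusted p = 0.0138 by limma). Cd74, the invariant chain, differed by 0.22. Among 13 genes of hairpin processing and RNA interference, Drosha, the nuclease that cuts microRNA precursors, differed by 0.24 and Prkra, a PKR activator and Dicer partner, by 0.36; neither was called. Among 10 genes that restrict retroviral elements, Zc3hav1, the zinc finger antiviral protein, differed by -0.38 and was not called, Mov10, an RNA helicase, was called lower with the block (log2 -0.52, adjusted p = 0.0447), and Rnaseh2c, a subunit of RNase H2, higher (log2 0.39, adjusted p = 0.0353), both by limma. With the block Mavs, the adaptor of RNA sensing, was called between hairpins (log2 -0.81, sh4 minus sh3, adjusted p = 0.0490 by limma). In all, 9 of the 101 genes (8.91%) were called in at least 1 of the 4 comparisons of hairpins with the block, close to the 7.42% of all genes.

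In the replicate-number contrast 15 of the 101 genes were called higher, against 2.39% of all genes, and 0 lower, against 2.32%, by limma. These were 10 of 33 other interferon-stimulated genes, 3 of 16 other class I genes (Psmb10, Tapbp and Erap1), the feedback inhibitor Socs3, and Prkra. Gbp7 read 837 and 249 in shNT, 1051 and 466 in sh3, and 809 and 389 in sh4, and differed on the log2 scale by 1.29 (SE 0.14 and adjusted p = 0.00117 by limma). Rtp4, a chaperone of membrane receptors, read 164 and 3.69 in shNT, 262 and 86.4 in sh3, and 181 and 11.9 in sh4. Socs3 read 8470 and 3514 in shNT, 6489 and 3574 in sh3, and 6327 and 3876 in sh4 (log2 0.94). In each of these genes, replicate 1 was the brighter array in every group.

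Marker genes of other cell types were set beside these values. In the replicate-number contrast 4 of 10 embryonic stem cell markers were called lower in replicate 1 by limma, against 2.32% of all genes: Esrrb (log2 -0.56), Nanog (log2 -0.43), Dppa5a (log2 -0.36) and Zfp42 (log2 -0.25). Their summed signal over the list was 113220, 96746 and 102526 on the replicate 1 arrays of shNT, sh3 and sh4, and 134835, 103528 and 109990 on the replicate 2 arrays. None of the 3 tested leukocyte markers was called. The summed signal of that list was 1755 to 2484, most of it from Laptm5 (1264 to 1841). Of 11 tested feeder fibroblast markers 0 were called in this contrast (median -0.09). In the knockdown mean 10 of 11 had positive differences, beside 51.7% of all genes, and the median was 0.78, beside 0.01. There 1 gene was called higher, the collagen gene Col3a1 (log2 2.01, adjusted p = 0.0336 by limma), against 0.56% of all genes, and 2 with the block (Col3a1 and the proteoglycan gene Dcn), against 3.33%. In sh3 0 were called, against 0.071% of all genes, or 1 higher with the block (Col3a1), against 2.03%. In sh4 2 were called (Col3a1 and Dcn), against 0.363%, or 3 higher with the block (also Fstl1), against 2.69%. Col3a1 read 25.6 and 37.6 in shNT, 109 and 190 in sh3, and 171 and 254 in sh4. Dcn read 10.9 and 11.7 in shNT, 41.4 and 47.1 in sh3, and 106 and 113 in sh4, so both were higher on all 4 knockdown arrays. The summed signal of the fibroblast list was 11843 and 13774 in shNT and 11521 to 13152 in the knockdown arrays. Most of that sum came from 1 gene, Fn1, which read 9078 and 11138 in shNT and 7894 to 9192 in the knockdown arrays. The sum therefore does not show the rise of Col3a1 or the course of the other dimmer markers. The part of these markers in the members' differences was not tested.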

How the data were processed

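Each of the 6 arrays, of an Affymetrix whole-genome mouse design, held cRNA from 6 ug of total RNA. The authors deposited linear signal intensity, and the submitters' processing notes name MAS5, of a version not given in the sources used here. A trimmed mean of 496 to 497 on every array shows that the deposited intensities were already scaled. Of 45101 probe sets, 34945 had 1 gene symbol, 932 several and 9160 none; names were used for the first kind alone. Signals were taken as log2(signal + 16), with 1 probe set per gene, that of the highest mean log2 over the 6 arrays. Genes under the 40th percentile (log2 5.81) were not tested. Group means of the 3 groups were fitted with limma 3.58.1 (R 4.3.3) with an intensity trend (residual df 3, prior df 5.96), 2-sided, with Benjamini-Hochberg adjustment at 0.05 over 12684 genes. With the replicate number as a block residual df was 2. Same-numbered arrays' deviations from their group means correlated at 0.223 to 0.302 across genes in the 3 pairs of groups, which is where the pairing comes from. Whether replicates came from separate cultures is stated only as biological duplicates, and the p-values measure the spread between these samples. The 36 genes, the pathway and marker lists and the rule for named genes were chosen with earlier results of these data known. All members were named; full statistics were given for those called in any contrast with or without the block and for the 8 with the smallest p, and from each pathway list the called genes or the 2 with the smallest p. Listed genes with no single-gene probe set are not analysed here. Errors are SDs over arrays or standard errors from limma, and the number of arrays limits the precision. Promoter windows are those of RefSeq on GRCm38.p6.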

Additional observations from a re-analysis of the deposited data

Results flagged for a closer look

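Irf9, the DNA-binding subunit of the complex that binds the ISRE, differed in direction between the hairpins. Both sh3 arrays (202 and 200) lay below both control arrays (262 and 269), and both sh4 arrays (280 and 313) lay above them. The log2 difference sh4 minus sh3 was 0.52 (SE 0.20), which was not called (adjusted p = 0.783 by limma over all genes tested).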

How the results depend on the processing

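Phf11d kept its direction in every alternative run. The number of members called in the knockdown mean was 0 without the intensity trend and 4 with the replicate block, and 0 to 1 on leaving out each array. It was 4 in sh3 and 2 in sh4 with the block, and 0 to 1 in sh4 on leaving out each array. The members' median ranged from -0.088 to 0.27 in the knockdown mean, from -0.090 to 0.36 in sh3 and from -0.12 to 0.31 in sh4 on leaving out each array, and in sh3 it was 0.0029 with the mean of all probe sets and 0.018 when probe sets prone to cross-hybridization were dropped. Without leaving out an array, the knockdown median was -0.0031 with arrays centred and -0.0062 with the mean of probe sets, and the sh4 median was -0.054 with arrays centred. The sign of the members' median thus turned with single arrays and with these settings. Of the wider lists, 1 gene was called with arrays centred and 9 with the block. In the replicate-number contrast 4 members were called with the mean of probe sets and 0 without the trend, and 6 to 10 on leaving out each array.

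Signs that turned with the mean of probe sets were those of Ifnar2 (0.20), Eif2ak2 (-0.0062), H2-D1 (-0.11), Stat2 (-0.11) and Rsad2 (0.026). Stat2 was -0.0031 with arrays centred, and Ifit2 was -0.035 with centring and -0.026 with quantile normalization. On leaving out each array the log2 difference ranged from -0.43 to 2.04 for Ifih1, -0.30 to 0.44 for Stat2, -0.48 to 0.74 for Irf1, -0.39 to 0.11 for Oasl2, -0.69 to 0.77 for Ifit2, -0.17 to 0.081 for Rsad2, -0.0029 to 0.93 for Gbp2, -0.50 to 0.37 for Ifi35, -0.28 to 0.0092 for Trim25, -0.35 to 1.22 for Psmb8, -0.0066 to 0.43 for Psmb9 and -0.084 to 1.03 for Tap1. The cause was not tested. The block changed no other call of a member. Dim probe sets, near the filter, limit what can be said of Stat2, Ifih1, Dhx58 and Oasl2.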
